A study of Mus musculus with 8 samples.

Results

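Glycolysis and the response to low oxygen were followed through 35 genes in chondrocytes, the cells that form cartilage. They were taken from a list of oxygen sensors, glycolytic enzymes and genes induced by hypoxia-inducible factor (HIF); the list is one of function, not of measured values, but was drawn up with earlier results of these data known. A gene was counted where a probe set, the group of short probes that reports a transcript on the array, carried its symbol alone, and the probe set with the highest mean signal stood for it. That held for 32 of the 35 genes, out of 18193 genes on the array; Gpi1, Eno1 and Bnip3l are not analysed here. All 32 passed the filter on dim signals, as did 10989 genes in all, and the mean of each genotype lay above it for every one of the 32.

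The cells came from rib cages that were digested with collagenase and trypsin, taken from E18.5 embryos of FVB mice. Per the labels, 4 litters each gave 1 control sample, labelled wild type, and 1 sample from embryos carrying a Hoxc8 transgene, so that there were 4 arrays of each genotype. The labels do not say whether the controls carry another transgene. The promoter that drives the transgene and the number of embryos in a sample are not given in the sources used here. Hoxc8 itself averaged 3519 ± 501 over the controls and 3885 ± 369 over the transgenic arrays (SD, n = 4 each), and the groups overlapped. The label of the cells was borne out by cartilage genes. Col2a1, the main cartilage collagen, lay between 39184 and 63257 over the 8 arrays, Acan, the core protein of aggrecan, between 21014 and 32666, and Sox9, which encodes the master factor of cartilage, between 3035 and 5652. Skeletal muscle genes were also found, with 14 of 14 above the filter, which 10989 of all 18193 genes passed. Also above it were 10 of 10 genes of perichondrium and fibroblasts, 6 of 6 of hypertrophic chondrocytes and 4 of 4 of osteoblasts. For other cells the numbers were 7 of 9 for endothelium, 6 of 9 for macrophages and 2 of 6 for erythroid cells. Neutrophils had 4 of 8, with Mpo and Elane below the filter, and fat cells 1 of 3, Fabp4, with Adipoq below it. A count near or under the share of all genes, as for macrophages, neutrophils, erythroid and fat cells, does not show that the cells were present.

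Cartilage has no blood vessels, and its cells live at low oxygen and take much of their energy from glycolysis. When oxygen is present, prolyl hydroxylases of the Egln family mark the HIF alpha subunits, and the von Hippel-Lindau protein Vhl then directs their destruction. When oxygen is scarce the alpha subunits pair with Arnt and switch on genes of glucose uptake, glycolysis, mitophagy and vessel growth. HIF is controlled largely at the protein level, so the mRNA of its subunits does not show its activity. In a bulk sample, fewer cells of a type and less RNA per cell cannot be told apart.

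HIF binds a short core motif near its target genes, written here as ACGTG or GCGTG. The upstream sequences of 6 of the 9 genes that differed between litters are shown: Slc2a1, Hk2, Pfkfb3, Adm and Vegfa, which were highest in litter 2 and lowest in litter 4, and Bnip3, which was highest in litter 4. They were picked to show the range of match numbers, from none to the most among the 9, and no relation of matches to litters was tested. Each is the 250 bases before the annotated start, from RefSeq, build GRCm38.p6, read 5′ to 3′ on the gene's strand, with matches to either motif on either strand in capitals (CACGT and CACGC on the other strand). For Pfkfb3 and Vegfa, which have 2 entries each, the entry listed ahead of the other is shown.
Slc2a1, chr4:119108495-119108744, plus strand: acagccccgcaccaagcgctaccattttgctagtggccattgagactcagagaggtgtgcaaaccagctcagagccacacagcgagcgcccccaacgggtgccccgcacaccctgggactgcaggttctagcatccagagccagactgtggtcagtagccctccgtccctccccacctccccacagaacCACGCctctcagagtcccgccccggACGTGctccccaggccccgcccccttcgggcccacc
Hk2, chr6:82774455-82774704, minus strand: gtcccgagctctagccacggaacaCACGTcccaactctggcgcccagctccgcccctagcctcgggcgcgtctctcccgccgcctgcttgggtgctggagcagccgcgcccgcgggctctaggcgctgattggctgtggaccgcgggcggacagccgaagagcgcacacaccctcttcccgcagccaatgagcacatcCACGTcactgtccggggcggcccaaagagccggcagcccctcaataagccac
Pfkfb3, chr2:11553930-11554179, minus strand: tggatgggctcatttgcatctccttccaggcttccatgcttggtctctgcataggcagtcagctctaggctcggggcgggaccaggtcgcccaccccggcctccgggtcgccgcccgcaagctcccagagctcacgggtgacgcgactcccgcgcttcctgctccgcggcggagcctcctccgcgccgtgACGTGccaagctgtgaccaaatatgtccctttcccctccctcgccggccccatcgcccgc
Adm, chr7:110627407-110627656, plus strand: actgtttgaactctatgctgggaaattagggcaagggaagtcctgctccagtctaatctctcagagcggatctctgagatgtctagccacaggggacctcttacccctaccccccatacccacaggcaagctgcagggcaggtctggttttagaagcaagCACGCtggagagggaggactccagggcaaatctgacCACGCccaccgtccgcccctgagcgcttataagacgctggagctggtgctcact
Vegfa, chr17:46032378-46032627, minus strand: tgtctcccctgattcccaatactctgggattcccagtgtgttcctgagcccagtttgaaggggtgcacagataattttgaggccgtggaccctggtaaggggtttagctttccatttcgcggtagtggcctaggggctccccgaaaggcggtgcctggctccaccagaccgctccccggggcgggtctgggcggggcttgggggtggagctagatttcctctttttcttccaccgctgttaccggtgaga
Bnip3, chr7:138909507-138909756, minus strand: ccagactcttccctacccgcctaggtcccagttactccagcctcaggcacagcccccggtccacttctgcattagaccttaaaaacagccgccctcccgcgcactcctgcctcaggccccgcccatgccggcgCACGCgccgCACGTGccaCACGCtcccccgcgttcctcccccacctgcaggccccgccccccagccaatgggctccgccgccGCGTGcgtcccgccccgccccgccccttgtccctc

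Matches numbered 2 for Slc2a1, 2 for Hk2, 1 for Pfkfb3, 2 for Adm, 0 for Vegfa and 5 for Bnip3. The second entries held 3 for Pfkfb3 and 2 for Vegfa. Both lie downstream of the entries shown, so their bases may lie within the gene. Of the other genes that differed between litters, Pfkp had 3, Egln1 2 and Aldoc 1 in each of 2 entries, and Ldha, which was not among them, had 5 in the entry listed ahead. Those of Bnip3, Ldha and the second Pfkfb3 entry include CACGTG, a palindrome that counts on both strands and is also bound by other factors. Promoter entries were found for 31 of the 35 listed genes. Of their 45 entries, 37 (82.2%) held either motif in the 250 bases, against 38.6% of all 32851 entries. Entries of the group were also richer in CG dinucleotides, which both motifs contain, with a median of 14 per entry against 6 over all entries. A match is a description of these letters and not a binding site.

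The comparison of genotypes asks whether these genes differ in embryos that carry a transgene for Hoxc8, a homeobox gene of trunk patterning. Hoxc8 itself differed by 0.15 log2 (SE 0.12, 95% interval 0.924-fold to 1.33-fold), so a higher Hoxc8 level is not shown on these arrays. No gene of the group passed the test (limma, smallest adjusted p of the 32 genes 0.9999). The background is the same, since 0% of all genes tested passed. At an unadjusted p under 0.05, limma gave 0 of the 32 genes and 100 of the 10989, and with litter as a replicate block 0 of 32 and 338 of 10989. Of the 32 genes, 19 had a positive and 13 a negative difference, transgenic minus control, with a median of 0.031 log2 against 0.0015 over all genes tested. These log2 differences are on the scale of log2(signal + 22.2), which understates changes of dim genes.

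The intervals were narrow for most of the group. For 31 of the 32 genes the 95% interval of the difference lay within 1.5-fold in either direction. The exception was Adm, which encodes the vasodilator peptide adrenomedullin, with an interval from 0.613-fold to 2.06-fold. The groups of 4 arrays overlapped for all 32 genes; among all genes tested they did not overlap for 0.992%. Egln2 was the only gene of the 32 whose 4 litter differences shared a sign, a share of 3.12% against 10.7% of all genes tested.

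**Figure D1:**
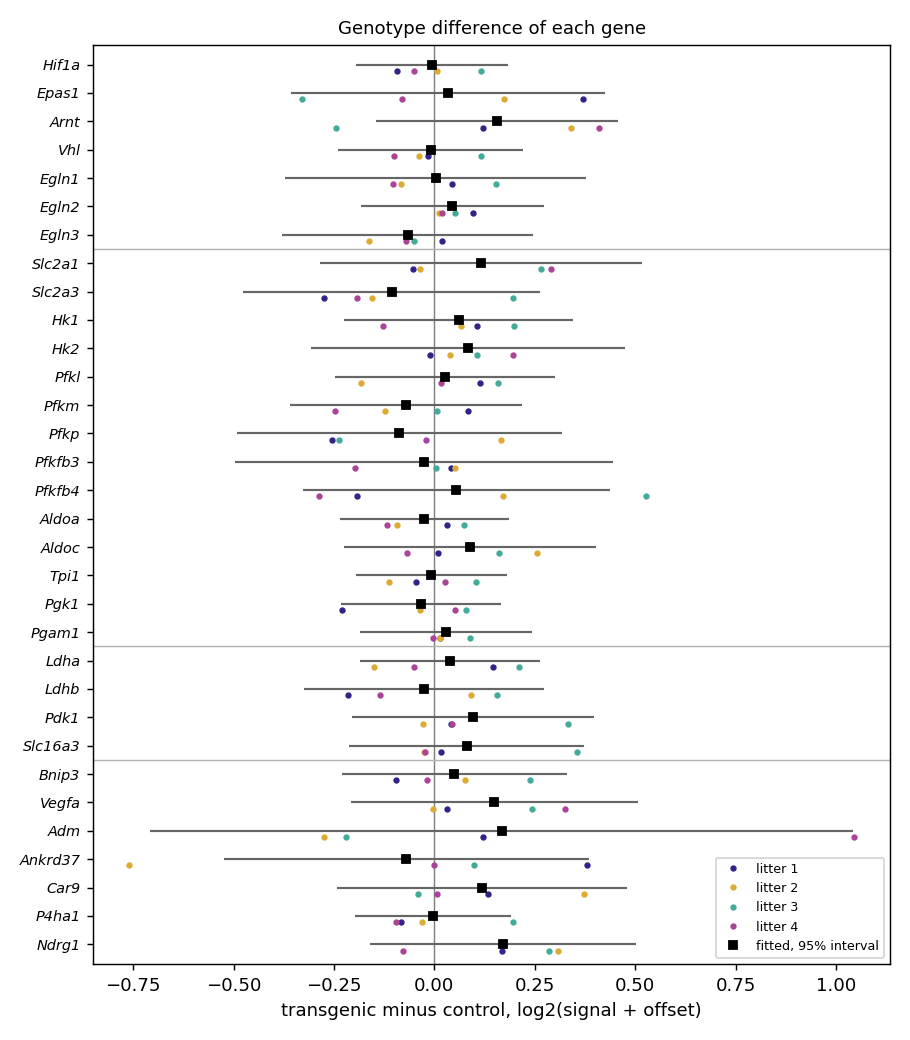
Fitted difference between genotypes for each of the 32 genes on the scale of log2(signal + 22.2), with squares for the fitted value, bars for the 95% interval and dots for the difference within each of the 4 litters; grey lines part oxygen sensing, glucose uptake and glycolysis, the fate of pyruvate, and other HIF targets. Every interval crosses 0, and the widest is that of Adm. Intervals are from the fit without a litter block.

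The oxygen-sensing genes were measured well above the filter signal of 110. Hif1a, the alpha subunit found in most cells, gave 8272, 8322, 7982 and 7769 on control arrays 1 to 4 and 7761, 8359, 8653 and 7495 on transgenic arrays 1 to 4. The values of the genotypes interleave, and the difference was -0.0052 log2 (SE 0.088, 95% interval 0.874-fold to 1.14-fold). Epas1, the alpha subunit known from endothelial and hypertrophic cartilage cells, stood at 498 ± 119 for controls and 507 ± 91.3 for transgenics (SD, n = 4). Arnt, the shared beta subunit, had 935, 749.6, 1111 and 892 on control and 1019, 954, 933 and 1193 on transgenic arrays, which differ by 0.16 log2 (SE 0.14). It was higher in the transgenic sample of 3 litters and lower in that of litter 3. Vhl was among the steadiest, from 833 to 914 over the 8 arrays.

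The 3 prolyl hydroxylase genes had small differences of both signs. Egln2, whose gene is not itself induced by low oxygen, had means of 1166 ± 52.8 (SD, n = 4) and 1204 ± 69.9. Its litter differences were all positive but small, the largest being 0.095 log2. For Egln3, a feedback target of HIF, the means were 951 ± 154 on control and 904 ± 121 on transgenic arrays (difference -0.066 log2, SE 0.14). Egln1, the main oxygen sensor, gave 1861, 1894, 1609 and 1252 on control and 1921, 1787, 1792 and 1164 on transgenic arrays. Both samples of litter 4 were low, and the fitted genotype difference was 0.0032 log2 (SE 0.17).

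Glucose enters cartilage cells mainly through the facilitated transporter encoded by Slc2a1. Its signals were 10085, 12905, 7739.9 and 6703 on control and 9715, 12583, 9317 and 8202 on transgenic arrays. Both samples of litter 2 lay above all others, and the genotype difference was 0.12 log2 (SE 0.19, 95% interval 0.822-fold to 1.43-fold). Slc2a3, a transporter best known from neurons, had means of 256 ± 47.4 (SD, n = 4) and 234 ± 25.1 (-0.11 log2). Signals of different probe sets depend on their own binding and do not give the relative amounts of 2 genes.

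Hexokinase traps glucose in the cell, and 2 of its genes were measured. Hk2, the form that HIF induces, gave 2296, 2635, 1959 and 1468 on control and 2279, 2707, 2112 and 1686 on transgenic arrays, so that litter 2 was highest and litter 4 lowest in both genotypes. Hk1, the housekeeping form, had means of 949 ± 109.9 for controls and 992 ± 126 for transgenics (SD, n = 4) (0.061 log2, SE 0.13). Phosphofructokinase, the committed step, is made by 3 genes. Pfkl, the liver form, stood at 3435 ± 504 and 3489.9 ± 423, and Pfkm, the muscle form, at 1766 ± 191 and 1689.8 ± 265. Pfkp, the platelet form, gave 1218, 1294, 962 and 864 on control and 1017, 1455, 813 and 851 on transgenic arrays. Its 2 highest values were those of litter 2, and the genotype difference was -0.087 log2 (SE 0.19).

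Pfkfb3 and Pfkfb4 encode enzymes that set fructose 2,6-bisphosphate, the activator of phosphofructokinase. Pfkfb3 gave 988, 1074, 813 and 625 on control and 1017, 1112, 816 and 542 on transgenic arrays. The litters kept the same order in both genotypes, 2 above 1, then 3, then 4, and the genotype difference was -0.026 log2 (SE 0.22). Pfkfb4 had means of 340.1 ± 79.7 (SD, n = 4) and 348 ± 34.5, with a wide span of litter differences from -0.29 to 0.53 log2.

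The enzymes of the later steps were bright. Aldoa, the main aldolase gene, had means of 13238 ± 1368 for controls and 12971 ± 796 for transgenics (SD, n = 4). For Tpi1, triose phosphate isomerase, the means were 20124 ± 1473 and 19999.8 ± 1127, and for Pgk1, phosphoglycerate kinase, 31018 ± 2877 and 30263 ± 2230.05. Differences of these 3 genes lay between -0.034 and -0.0075 log2. Pgam1, phosphoglycerate mutase, stood at 8810.2 ± 734 and 8988 ± 769 (0.028 log2, SE 0.099). Aldoc, the aldolase of brain, gave 3453, 2981, 2288 and 2934 on control and 3473, 3562, 2561 and 2798 on transgenic arrays, with both samples of litter 3 at the bottom. The probe sets of Aldoa, Pgk1, Ldhb and Ndrg1 are of the type (_x_at) whose probes may also bind other transcripts, and that of Slc2a3 (_s_at) may bind several, so these signals may not come from the named gene alone.

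**Figure D2:**
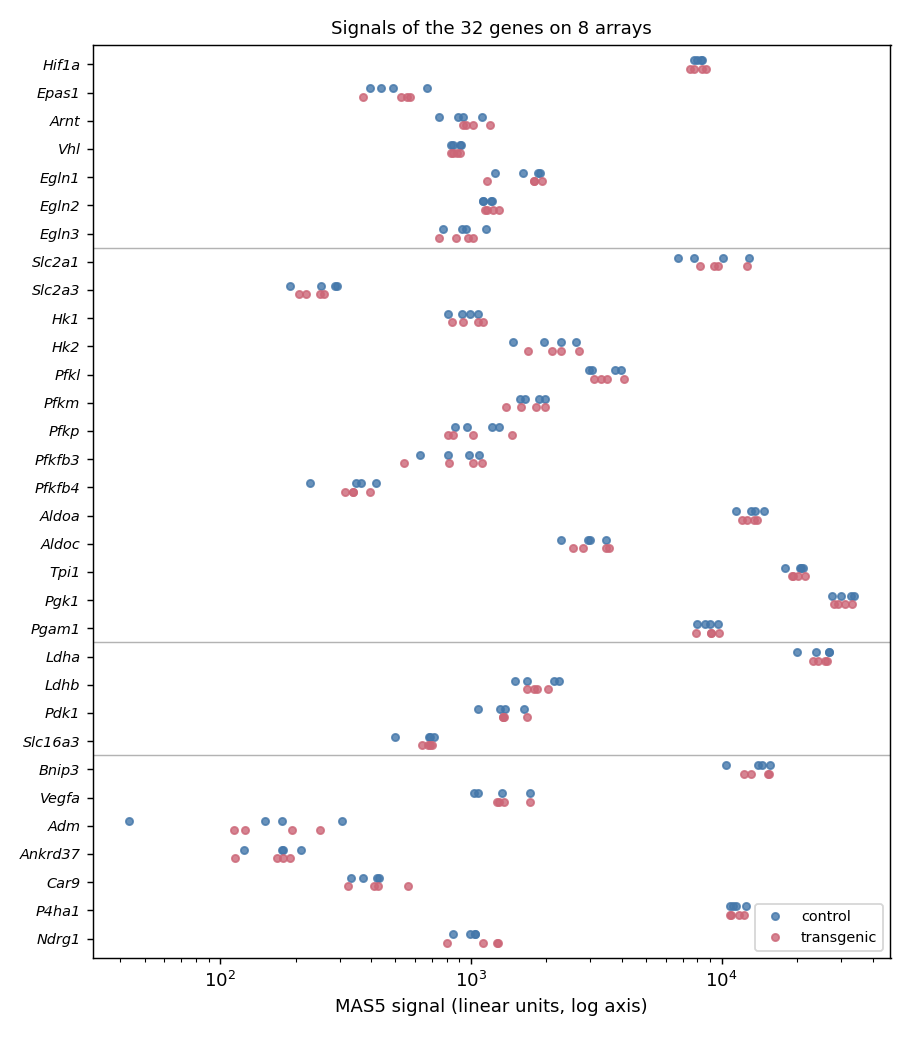
Deposited signal of the 32 genes on each of the 8 arrays, on a log axis, with control samples in blue and transgenic samples in red; grey lines part the roles. The 2 genotypes overlap in every gene, and Adm spreads most, from 43.5 to 308.

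Pyruvate can be turned into lactate and exported or passed to the mitochondria. Ldha, the lactate dehydrogenase subunit of glycolytic tissue, had means of 24343 ± 3233 (SD, n = 4) and 24868 ± 1476, a difference of 0.039 log2 with a 95% interval from 0.88-fold to 1.2-fold. Ldhb, the subunit of oxidative tissue, stood at 1891 ± 358 and 1837 ± 153. Pdk1, a kinase that closes the entry of pyruvate to the mitochondria, gave 1311, 1369, 1069 and 1632 on control and 1349, 1342, 1352 and 1682 on transgenic arrays, and litter 4 was highest in both genotypes. Slc16a3, the lactate exporter, had means of 644 ± 99.3 and 676 ± 25.2. Its control sample of litter 3, at 496, lay apart from the other 7 arrays, which ran from 641 to 711.

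The remaining HIF targets act outside glycolysis. Ndrg1, a stress-induced gene, had the largest fitted difference of the 32 genes with 993, 1035, 1039 and 849 on control and 1119, 1286, 1273 and 803 on transgenic arrays (difference 0.17 log2, SE 0.15). The 5 tested probe sets of Ndrg1 ran from -0.23 to 0.19 log2, and their mean turned the difference to -0.01. The brightest was higher in the transgenic sample of litters 1, 2 and 3 and lower in litter 4, and with litter as a replicate block its SE was 0.096 (limma, unadjusted p = 0.0997, adjusted p = 0.9998). Vegfa, the vessel growth factor, had 1331, 1721, 1069 and 1029.95 on control and 1362, 1717, 1269 and 1296 on transgenic arrays (difference 0.15 log2, SE 0.16). Its 2 highest values were both of litter 2. Bnip3, a mitophagy receptor, gave 13969.6, 14558, 10371 and 15572 on control and 13063, 15343, 12230.00 and 15386 on transgenic arrays, lowest in litter 3 of both genotypes.

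Adm gave 177, 308, 151 and 43.5 on control and 194, 250.3, 126 and 113 on transgenic arrays. The control value of litter 4 lay below the filter signal, and the Adm difference of 0.17 log2 (SE 0.40) turned to -0.28 without that array. Car9, a carbonic anhydrase much used as a hypoxia marker, had means of 389 ± 45.2 (SD, n = 4) and 430.4 ± 98.3. P4ha1, the alpha subunit of collagen prolyl 4-hydroxylase, stood at 11447 ± 759.9 and 11422 ± 738 (-0.0032 log2, SE 0.09). Ankrd37 was dim, with means of 172 ± 35.7 and 163 ± 33.1.

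Paralogs of 1 step were also set against each other within each array, since a change in isoform would move their ratio. The pair of Bnip3 and Bnip3l could not be formed. Of 9 pairs, 0 passed the exact two-sided permutation test over the 70 splits of 4 and 4 arrays (smallest exact p 0.143, adjusted over the pairs 0.943). The smallest p the test allows is 0.0286, so a single pair could not have passed the adjustment. Pfkl/Pfkm had the smallest p, with log2 ratios of 0.95 ± 0.06 (SD, n = 4) on control and 1.04 ± 0.09 on transgenic arrays. For Ldha/Ldhb they were 3.68 ± 0.23 and 3.74 ± 0.074. Slc2a1/Slc2a3 was higher in the transgenic sample of all 4 litters, by 0.22 log2 on average, and its values overlapped (exact permutation p = 0.429). The widest span between litters was that of Pfkfb3/Pfkfb4, whose log2 ratio was 0.60 in litter 4 and at least 1.47 in the other litters.

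The 4 litters were compared next. With genotype in the model, 9 of the 32 genes (28.1%) passed limma's moderated F-test for a difference among the 4 litters at an adjusted p of 0.05, against 9.91% of all genes tested. The median distance between the highest and the lowest litter mean was 0.40 log2 over the 32 genes and 0.37 over all genes tested. The spread left within litters was smaller in the group. With litter as a block, the median half-width of the genotype interval was 0.19 log2 against 0.24 over all genes. The part of this smaller spread in the higher share of calls was not tested. The 9 called genes were Egln1, Slc2a1, Hk2, Pfkp, Pfkfb3, Aldoc, Bnip3, Vegfa and Adm. Litter 2 was highest for 6 of them (66.7%, against 35.6% of all called genes), litter 1 for Egln1 and Aldoc and litter 4 for Bnip3, and litter 4 was lowest for all but Aldoc and Bnip3, whose lowest was litter 3. Over the 32 genes, litter 2 was highest for 15 (46.9%, against 24.5% of all genes tested), and litters 3 and 4 were lowest for 14 each (43.8%, against 25.1% and 29%). The labels give no date, so a litter and the handling of its samples cannot be told apart, and each litter has 2 arrays.

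Genes of glucose uptake and glycolysis gave 5 of the 9 calls. Slc2a1 had litter means of 9899.8, 12744, 8529 and 7453 in litters 1 to 4, and litter 2 stood above litter 4 by 1.72-fold (0.78 log2, SE 0.11); the adjusted p of the F-test was 0.00514 (limma). Hk2 had 2288, 2671, 2035 and 1577, with litter 2 above litter 4 by 1.69-fold (0.76 log2, SE 0.11) and an adjusted p of 0.00668 (limma). The order of litters was the same for both genes. Pfkfb3 had 1002, 1093, 815 and 584, a distance of 1.84-fold (0.88 log2, SE 0.13) between litters 2 and 4, and an adjusted p of 0.00688 (limma). For Pfkp the litter means were 1117, 1375, 887 and 858 (limma adjusted p = 0.0267) and for Aldoc 3463, 3271, 2425 and 2866 (limma adjusted p = 0.0371). Pfkp was high in litter 2 while Aldoc was low in litter 3.

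Outside glycolysis the called genes split. Egln1 had litter means of 1891, 1840.5, 1701 and 1208 (limma adjusted p = 0.0147), with litter 4 low and the other litters within 1.11-fold of each other. Vegfa had 1347, 1719, 1169 and 1163 (limma adjusted p = 0.0361), high in litter 2, and Adm 186, 279, 138 and 78.4 (limma adjusted p = 0.0352), with the mean signal of litter 4 under the filter. Bnip3 ran differently, with 13516, 14950.5, 11301 and 15479 (limma adjusted p = 0.0333): litters 2 and 4 were high and litter 3 was low. The 4 genes of pyruvate fate, none of which passed, were likewise highest in litter 4 and lowest in litter 3. Pdk1 had litter means of 1329.9, 1355, 1210.3 and 1657 (limma adjusted p = 0.118) and Ldhb 1993, 1733, 1588 and 2141 (limma adjusted p = 0.107).

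**Figure D3:**
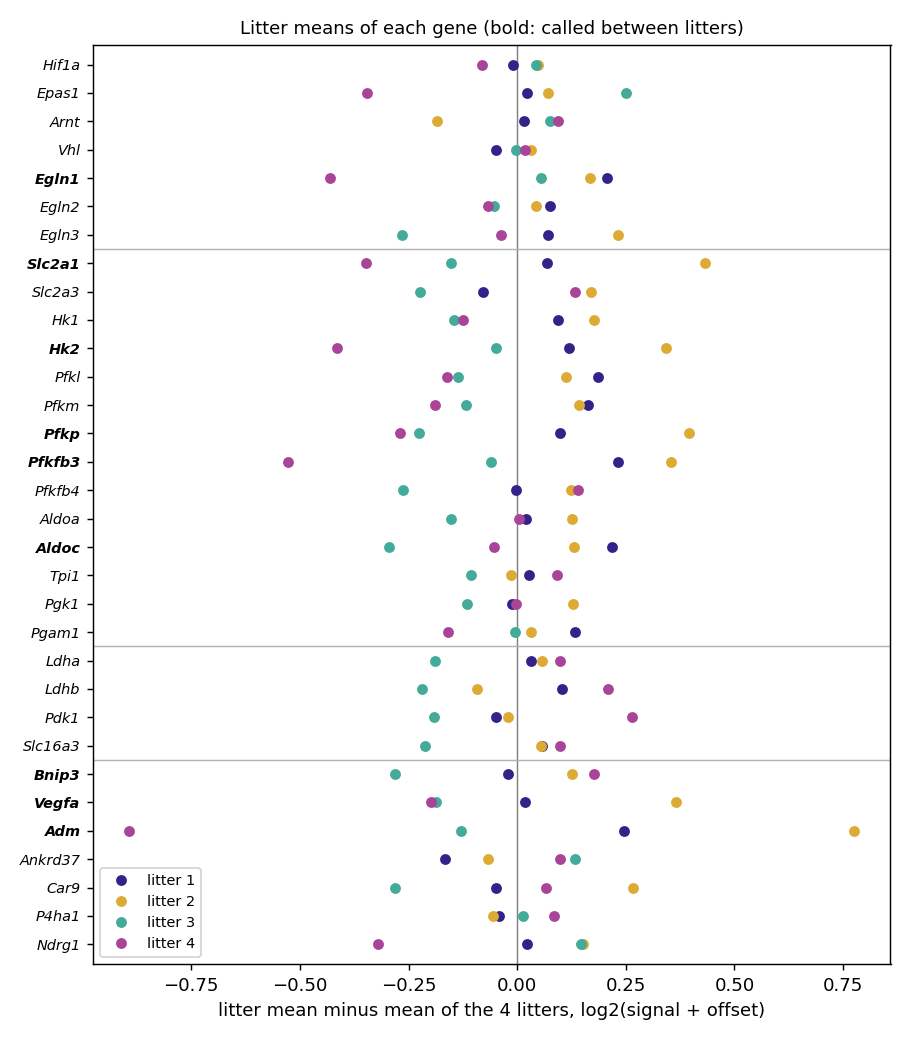
Mean of the 2 arrays of each litter, as the distance from the mean of the 4 litters on the scale of log2(signal + 22.2), for the 32 genes; names in bold passed the F-test between litters. Litter 2 lies to the right for Slc2a1, Hk2, Pfkp, Vegfa and Adm, where litter 4 lies to the left, and litter 3 lies to the left for the genes of pyruvate fate.

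The number of litter calls depended on the processing and on single litters. With eBayes fitted without the intensity trend, 0 of the 32 genes and 0 of all genes passed, the smallest adjusted p of the 32 being 0.114, while 11 of the 32 had an unadjusted p under 0.05 against 17 with the trend. Without filter 4 of 32 passed (12.5%, against 3.1% of all genes), and with median centring 6 (18.8%, against 12.5%). With the filter at 2 times the median, 8 of 30 passed (26.7%, against 14%). Leaving out litter 2 left 2 of the 32 (6.25%), Egln1 and Pfkfb3, against 3.02% of all genes. Without litter 3 there were 5 (15.6%, against 4.93% of all genes), and without litter 4 there were 4 (12.5%, against 5.21%). Without control replicate 2 the count was 1, Pfkfb3, and 2.88%. Without control replicate 3, transgenic replicate 2 or transgenic replicate 3 it was 4, and 3.72%, 3.7% and 4.64% of all genes. Over the 21 other fits, the call was lost in 2 for Pfkfb3, 3 for Slc2a1, 4 each for Egln1 and Hk2, 9 each for Pfkp and Vegfa, 11 for Bnip3 and 13 for Aldoc, and for Adm in 9 of 20.

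**Figure D4:**
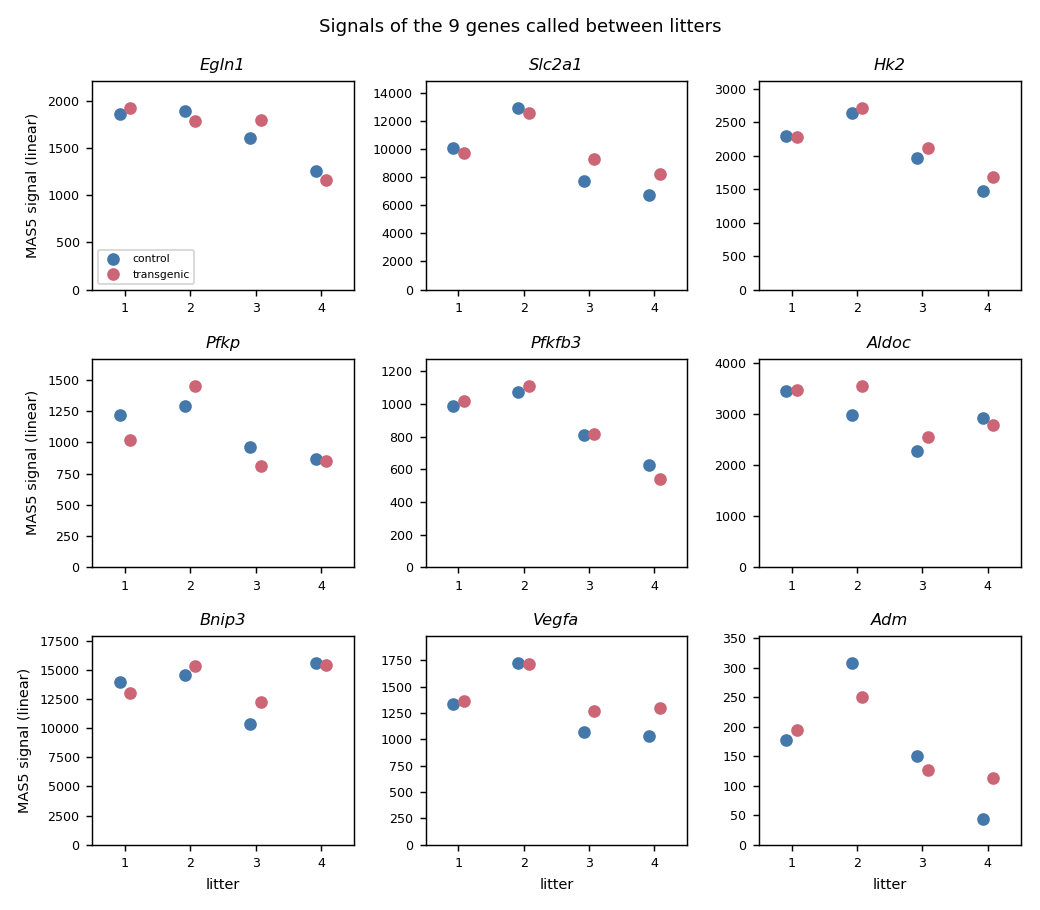
Deposited signals of the 9 genes that passed the F-test between litters, by litter, with control samples in blue and transgenic samples in red and each vertical axis starting at 0. The 2 samples of a litter lie close together for Pfkfb3 and Hk2, and litter 2 is highest for 6 of the 9 genes.

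Other measures moved with the litters. Of all genes tested, 9.91% passed the F-test between litters, and 0 did without the intensity trend. Genes induced when tissue is dissociated, such as Fos, Jun and Il6, differed in nearly all members: 18 of the 19 tested passed the same F-test, 17 of them highest in litter 2. Their summed signal was 245836 and 251757 in the 2 samples of litter 2, 187401 and 193113 in litter 1, 164782 and 188568 in litter 3 and 134192 and 141008 in litter 4. By litter mean this order, 2, 1, 3, 4, is that of Slc2a1, Hk2, Pfkp, Pfkfb3, Vegfa and Adm, 6 of the 9 called genes. The share of all called genes with this order was not counted, and 35.6% of them were highest in litter 2. The 14 cartilage genes of the marker list summed to 420460.00 and 464568 in litter 2 and 359553 and 370091 in litter 4, and 4 of the 14 passed, each highest in litter 2. Muscle genes ran the other way, with summed signals of 38598 and 41595 in litter 2 and 62812 and 67968 in litter 4 (8 of 14 passed). Of the other lists, 4 of 10 perichondrium and fibroblast genes, 2 of 6 macrophage genes, 2 of 6 hypertrophic chondrocyte genes, 2 of 4 neutrophil genes and 1 of 2 erythroid genes passed, and 0 of 7 endothelial, 0 of 4 osteoblast and 0 of 1 adipocyte genes.

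The ratio of 5-prime to 3-prime signal of the control probe sets, a sign of RNA integrity, was lowest in litter 4. For Gapdh it was 1.17 and 1.14 in the samples of litter 4 and between 1.26 and 1.36 in the other 6 samples. For beta-actin it was 0.512 and 0.475 against values between 0.59 and 0.647. The part of dissociation genes, of cell composition and of RNA integrity in the litter differences of the 32 genes was not tested.

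**Figure D5:**
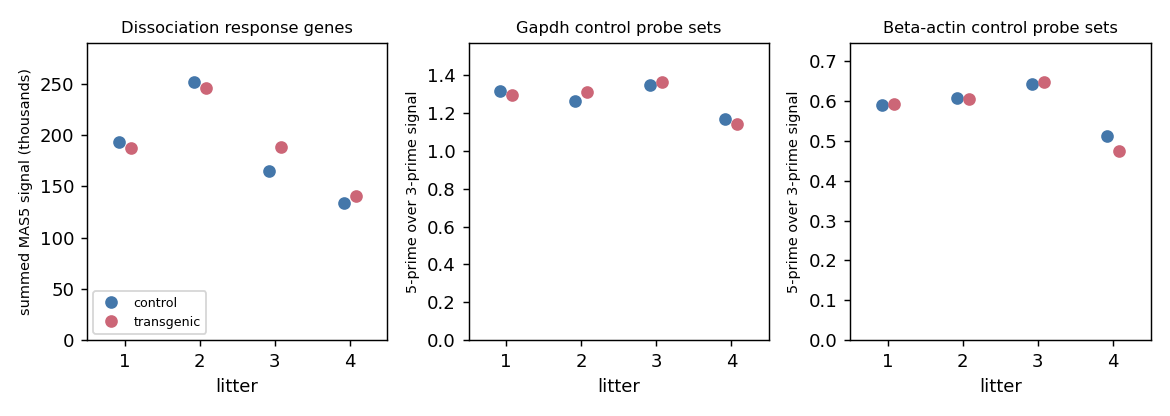
Summed signal of the dissociation list (left) and the ratio of 5-prime to 3-prime signal of the Gapdh (middle) and beta-actin (right) control probe sets, by litter, with control samples in blue and transgenic samples in red; all axes start at 0. The dissociation sum is highest in litter 2 and lowest in litter 4, and both ratios are lowest in litter 4.

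Further genes of the same pathways were read from 4 lists, of which 70 genes were tested. None passed between genotypes (limma, 0 of 70). Of 12 further glycolytic enzymes 6 had a positive difference, of 13 pyruvate and lactate genes 3, of 13 hypoxia regulators 7 and of 32 further HIF targets 14. The smallest unadjusted p were those of Adpgk, an ADP-dependent glucokinase gene (0.60 log2, SE 0.33), Pgam2, the muscle phosphoglycerate mutase (-0.49 log2, SE 0.29), and Gys1, a glycogen synthase gene (-0.40 log2, SE 0.28). Pgam2 was lower in the transgenic sample of all 4 litters (limma with litter as a replicate block, unadjusted p = 0.0016, adjusted p = 0.9998). The Pgam2 difference was -0.22 without transgenic replicate 2. The muscle list had 9 of 14 negative differences with a median of -0.043 log2, where 50.7% of all genes tested were positive. The Adpgk difference was 0.21 log2 with the mean of its probe sets in place of the brightest. It was 0.19 without control replicate 3, whose signal of 71.7 lay below the filter. Within litters 2 and 4 the Adpgk difference was -0.09 and -0.17 log2. The Gys1 difference was -0.06 without transgenic replicate 4.

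Between litters, 13 of these 70 genes passed, where 9.91% of all genes tested did. By list they were 2 of 12 glycolytic enzymes, 1 of 13 pyruvate and lactate genes, 3 of 13 hypoxia regulators and 7 of 32 HIF targets. Dusp1, a phosphatase gene also on the dissociation list, had litter means of 19668, 26053, 18562 and 14559 in litters 1 to 4 (limma adjusted p = 0.00109). Bhlhe40, a hypoxia-induced repressor, had 2554, 3747, 3347 and 1647 (limma adjusted p = 0.00115), and Cited2, a feedback inhibitor of HIF, 1742, 2041, 1373 and 982 (limma adjusted p = 0.00274). All 3 were highest in litter 2 and lowest in litter 4. Pgam2 ran against them, with 603, 258, 418 and 556 (limma adjusted p = 0.00485), lowest in litter 2 as the muscle sum was, and did not pass without litter 2 or without transgenic replicate 2 (limma adjusted p = 0.157 and 0.0548). Without the intensity trend none of these 4 passed (limma adjusted p from 0.0936 to 0.12).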

How the data were processed

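Rib chondrocyte RNA of 4 control and 4 transgenic samples was labelled with biotin and measured on Affymetrix arrays. The deposited values are intensity signals per probe set on a linear scale; the submitters' processing notes name MAS5, with no version given. The 2% trimmed mean of every array was 500, and median signals lay between 106 and 121. Precision is limited by having 4 arrays a genotype. The labels say that litters were separate and nothing more on replication.

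Probe sets were named from the platform annotation where it gave 1 symbol (34945 of 45101 probe sets; 932 had several), and 32 of 32 symbols were unchanged in RefSeq. The scale was log2(signal + 22.2), where 22.2 is the value at percentile 20 of all signals. The 22519 probe sets with a mean of at least 110, the median, were fitted with limma 3.58.1 in R 4.3.3 (eBayes with intensity trend, two-sided), without a block for genotype and with genotype as covariate for litters, Benjamini-Hochberg over all of them, threshold 0.05. The steps were tested on simulated data.

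Samples are paired by litter, per the labels. Deviations of same-litter arrays correlated at 0.0251, 0.434, 0.376 and 0.379 for litters 1 to 4. The highest correlation with an array of another litter was 0.063, 0.0133, 0.0303 and 0.00416. The pairing of litter 1 is thus not seen in the values and rests on the labels. The members, gene lists, paralog pairs and tests were chosen with earlier results of these data known. All members are named, and of the other pathway genes those 3 with the smallest genotype p and up to 4 called between litters by smallest p. Alternatives were a litter block, other offsets and filters, median centring, quantile normalization, robust eBayes, eBayes without trend, the mean of a gene's probe sets, and leaving out arrays and litters; for the other pathway genes these were added after seeing the data.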

Additional observations from a re-analysis of the deposited data

Results flagged for a closer look

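Within each genotype, the gap between the most extreme sample and its neighbour was divided by the spread of the 4 samples for the 32 genes, the 9 paralog ratios and Hoxc8. In 84 such groups, 5 samples stood apart by Dixon's 95% critical value, where chance gives about 4. Tpi1 was low in control replicate 3 at 17941 (next 20635), and Slc16a3 was low in the same sample at 496 (next 680.02). Pdk1 was high in transgenic replicate 4 at 1682 (next 1352). In control replicate 4 the log2 ratio of Hk1 to Hk2 was -0.66 (next -1.19) and that of Pfkl to Pfkp 1.80 (next 1.61).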

How the results depend on the processing

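No genotype call arose in 22 other fits: 0 of the 32 genes and 0 of all genes passed, and with litter as a replicate block the counts were 0 and 0. Hoxc8 stayed positive, between 0.05 and 0.23 log2. Of 318 genotype differences of the 32 genes under settings that kept all arrays, 12 turned sign: with the mean of a gene's probe sets Aldoa (0.03), Hk1 (-0.01), Ndrg1 (-0.01), Pdk1 (-0.06), Pfkl (-0.01), Pgk1 (0.01), Tpi1 (0.02), with median centring Hif1a (0.02), P4ha1 (0.02), Tpi1 (0.02), Vhl (0.01) and with quantile normalization Vhl (0.00). Leaving out arrays or litters turned 87 of 384 signs, all of uncalled differences, within these log2 ranges: Adm -0.28 to 0.50, Aldoa -0.09 to 0.03, Aldoc -0.02 to 0.18, Ankrd37 -0.22 to 0.16, Bnip3 -0.08 to 0.12, Car9 -0.01 to 0.24, Egln1 -0.12 to 0.16, Egln3 -0.16 to 0.03, Epas1 -0.08 to 0.18, Hif1a -0.05 to 0.03, Hk1 -0.01 to 0.13, Hk2 -0.07 to 0.20, Ldha -0.05 to 0.10, Ldhb -0.13 to 0.06, P4ha1 -0.07 to 0.04, Pdk1 -0.01 to 0.19, Pfkfb3 -0.17 to 0.18, Pfkfb4 -0.11 to 0.17, Pfkl -0.05 to 0.10, Pfkm -0.15 to 0.02, Pfkp -0.26 to 0.01, Pgam1 -0.02 to 0.09, Pgk1 -0.09 to 0.03, Slc16a3 -0.04 to 0.13, Slc2a1 -0.03 to 0.29, Tpi1 -0.06 to 0.03, Vhl -0.05 to 0.02. For the paralog ratios, 0 pairs passed in any setting. With all arrays the smallest possible exact permutation p is 0.0286, so a single pair could not have passed the adjustment. With a litter left out, the fewer splits allow no p under 0.05, so in these fits no pair could pass. Leaving out arrays turned 16 of 108 signs, with ranges of Egln1/Egln3 -0.06 to 0.22, Hif1a/Epas1 -0.20 to 0.10, Hk1/Hk2 -0.08 to 0.12, Ldha/Ldhb -0.03 to 0.17, Pfkfb3/Pfkfb4 -0.33 to 0.11. Between litters, the calls among the 32 genes and among all genes were 9 and 1089, fell to 0 and 0 without the intensity trend and to 4 and 564 without filter, and ran from 1 to 8 and from 316 to 1603 when arrays or litters were left out; the trend sets the prior spread, with prior degrees of freedom of 8.93 with it and 3.38 without. The other settings kept the litter count between 6 and 9. The 3 other pathway genes named for their genotype p kept their sign and passed in no fit. With 4 arrays a genotype, the 95% intervals of the 32 genes had a median half-width of 0.30 log2, and 0.19 with the replicate block. These widths hold for single genes without adjustment, so the adjusted test would miss smaller differences and many larger ones. Pgam2, at -0.49 log2, did not pass with the replicate block (limma adjusted p = 0.9998).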

Other observations

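Other probe sets of the same genes were read beside those that stood for them. Of 20 genes with several tested probe sets, 12 had genotype differences of both signs. The 3 probe sets of Slc2a1 all passed between litters and were all highest in litter 2, and both of Egln1 passed with litter 4 lowest. The dimmer probe set of Egln1 had a genotype difference of 0.37 log2 against 0.0032 for the brighter. In the fit with litter as a block, 3.08% of all genes tested had an unadjusted p under 0.05 (limma). Of the 71 tested probe sets of the group, only the dimmer one of Egln1 did (limma, unadjusted p = 0.0156, adjusted p = 0.9998). Its signals were 659.9, 625, 544 and 444 in control samples 1 to 4 and 1119, 846, 712 and 418 in transgenic samples 1 to 4.

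Of the 71 tested probe sets of the group, 16 (22.5%) passed between litters, against 9% of all 22519. For 4 genes a probe set that did not stand for the gene passed between litters while the brightest did not. These were Pgk1, with litter means of 5779, 5214, 7423 and 6117, highest in litter 3 where the brightest probe set was lowest, Tpi1 (12295, 12289.9, 10763 and 16049), Hk1 (461, 490.4, 399 and 274) and Ndrg1 (from 68.8 in litter 4 to 273 in litter 3). The Hk1 and Ndrg1 probe sets were lowest in litter 4, the litter with the lowest ratio of 5-prime to 3-prime signal. Whether these probe sets lie nearer the 5-prime end was not tested.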
